A study of Schmidtea mediterranea with 8 samples.

Results

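Cephalic ganglia of the planarian *Schmidtea mediterranea* were compared after RNAi of *patched* (*ptc*) and after control RNAi, with 4 of the 8 libraries of the series. These were 2 libraries of *ptc(RNAi)* ganglia and 2 of control ganglia. The control dsRNA was *unc-22*, a nematode gene that the planarian genome lacks. All 4 libraries came from large sexual animals of the S2F1L3F2 strain, fed bacteria that express dsRNA 12 times, 4 days apart, and dissected after a brief acid fixation. No source used here says whether the 2 libraries of a group came from separate animals, so the spread between them may be technical, and p-values measure that spread alone. Contigs of the transcriptome assembly were included where the mean over both groups was at least 100 normalized reads, which held for 12121 of 38633 contigs. The contigs nearest to this minimum averaged 100.01 and 99.95 normalized reads.

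Hedgehog (Hh) is a secreted signal. Patched is its receptor and, without ligand, holds back Smoothened. When ligand binds, or when Patched is lost, Smoothened acts on Gli transcription factors, which Sufu restrains. *ptc* is itself a target of the pathway in many animals. In planarians *hh* is expressed in medial neurons of the ganglia, and *if-1* (an intermediate filament gene) and *cali* (calamari) are markers of glia in the neuropil, the region of nerve processes.

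The libraries held 12219750 to 13215443 aligned reads each. Values are normalized reads, the reads of a library divided by its size factor, and they are not corrected for contig length, so levels are compared between libraries and not between genes. Each group has libraries a and b, names that carry no pairing. The SD of the log2 difference between the 2 libraries of a group over all tested contigs was 0.415 in *ptc(RNAi)* and 0.323 in control, and 180 and 183 contigs differed more than 2-fold between libraries of the same group. In bulk tissue, fewer cells of a type and less RNA per cell cannot be told apart.

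Neuronal transcripts were abundant in both groups. Summed over the 70 contigs of a neuronal panel, the normalized reads were 274922 and 258240 in *ptc(RNAi)*, against 288156 and 298085 in control. Both *ptc(RNAi)* sums were the lower ones, and most of each sum came from the neuropeptide and prohormone class. That class held 201233 and 172993 in *ptc(RNAi)*, against 210386 and 215055 in control. The sums of every other class of the panel overlapped between groups. The prohormone convertase gene *pc2*, which processes neuropeptides, had 34448 and 39542 normalized reads in *ptc(RNAi)* libraries a and b, against 37893 and 37764 in the control libraries. Synapsin (*syn*), a synaptic vesicle protein, had 4610 and 4999.97 in *ptc(RNAi)*, against 4768 and 4915 in control. The *ptc(RNAi)* and control values overlapped for *pc2* and for *syn*. In the authors' table against head fragments, the authors' mean for *pc2* was 45415 in control ganglia and 7211 in heads, and for the muscle gene *collagen* 771 and 16235. Those head fragments were amputated from another strain (CIW4) after fewer feedings, and the paper describes acid fixation for the ganglia dissection only. Strain, feeding, way of collection and tissue therefore cannot be told apart in values from that table.

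The targeted gene was lower in both *ptc(RNAi)* libraries, by less than 2-fold. *ptc* (dd_Smed_v4_7063_0_2) had 189 and 198 normalized reads in *ptc(RNAi)*, against 288 and 292 in control, a log2 fold change of -0.58 (standard error 0.13). Its limma p was 0.00417 before adjustment and 0.308 after Benjamini-Hochberg adjustment over all tested contigs, so it was not called. Where the dsRNA lies on the contig was not analysed here. Both *hh(RNAi)* libraries, which carry another dsRNA, also had less *ptc*, at 156 and 109.8 normalized reads, against 286 and 293 for the control libraries in that table.

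The other Hh pathway contigs differed less. The ligand gene *hh* (dd_Smed_v4_41965_0_1) had 183 and 189 normalized reads in *ptc(RNAi)*, against 243 and 210.3 in control, a log2 fold change of -0.28 (standard error 0.15). *smo*, for the transducer Smoothened, had 502 and 537, against 660.3 and 593 in control (-0.27, standard error 0.12). For both genes the *ptc(RNAi)* libraries lay below the control libraries, as for 19.2% of all tested contigs, and neither passed the test. *sufu*, the Gli inhibitor, had 257 and 220.4 in *ptc(RNAi)*, against 190.4 and 201 in control (0.28, standard error 0.15). The transcription factor *gli-1* had 147 and 172, against 139.8 and 137 (0.20, standard error 0.18). For *sufu* and *gli-1* the *ptc(RNAi)* libraries lay above the control libraries, as for 17.2% of all tested contigs. *gli-3*, with 57.4 and 61.1 in *ptc(RNAi)* against 51.6 and 68.7 in control, was under the minimum, and *gli-2* had no reads in any of the 4 libraries. Of the 5 pathway contigs tested, limma, edgeR and DESeq2 called 0, and 1 (*ptc*) had an unadjusted limma p under 0.05. The housekeeping gene *gapdh* had 39521 and 38212 in *ptc(RNAi)*, against 36156 and 41540.2 in control, and its groups overlapped.

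The glial genes showed small positive differences that did not pass the test. *cali* (dd_Smed_v4_9961_0_1) had 8648 and 9504 normalized reads in *ptc(RNAi)*, against 7267 and 7936 in control, a log2 fold change of 0.26 (standard error 0.13, limma adjusted p = 0.824), with both *ptc(RNAi)* libraries above both control libraries. *if-1* (dd_Smed_v4_12254_0_1) had 8926 and 10997 in *ptc(RNAi)*, against 7059 and 10477 in control, with overlapping groups and a log2 fold change of 0.20 (standard error 0.21, limma adjusted p = 0.936). The difference for *if-1* was -0.08 without control library a.

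**Figure D1:**
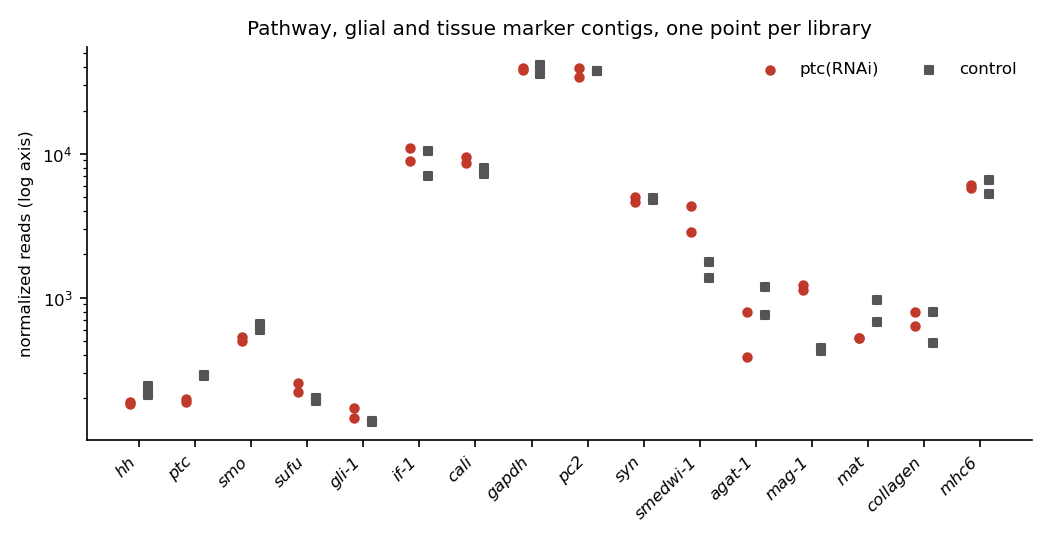
Normalized reads (log axis) of Hh pathway, glial, neuronal and tissue marker contigs, with 1 point per library, *ptc(RNAi)* as circles left of control squares. *ptc* lies at 189 and 198 in *ptc(RNAi)* and at 288 and 292 in control, *mag-1* is the marker whose groups are farthest apart, and *pc2*, *syn* and *gapdh* overlap.

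Across all tested contigs, few changes stood out from the spread between libraries. The log2 ratio of the group means was above 1 for 131 contigs and below -1 for 83, and on the log scale averaged by library the difference was above 1 for 102 and below -1 for 98. limma with a Benjamini-Hochberg adjusted p under 0.05 and more than 2-fold called 32 contigs higher (0.264%) and 9 lower (0.0743%) in *ptc(RNAi)*. At an unadjusted p under 0.05, 480 contigs were higher (3.96%) and 294 lower (2.43%). Both *ptc(RNAi)* libraries lay above both control libraries for 2079 contigs (17.2%) and below both for 2332 (19.2%). For a single contig, the smallest p that a two-sided exact permutation test over 4 libraries allows is 0.333.

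Leaving out 1 library moved these counts by more than 1.5 times in most cases. When *ptc(RNAi)* library a was left out, limma called 1 contig higher and 8 lower. When *ptc(RNAi)* library b was left out, it called 9 higher and 5 lower. The counts were 41 and 14 without control library a, and 65 and 47 without control library b. DESeq2 called 88 higher (0.726%) and 38 lower (0.314%), edgeR 28 (0.231%) and 8 (0.066%), and with no minimum for expression limma called 0 of 35600 contigs, with 2508 at an unadjusted p under 0.05. Of the 41 called contigs, edgeR also called 35 and DESeq2 all 41, and 4 were called with every library left out in turn.

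**Figure D2:**
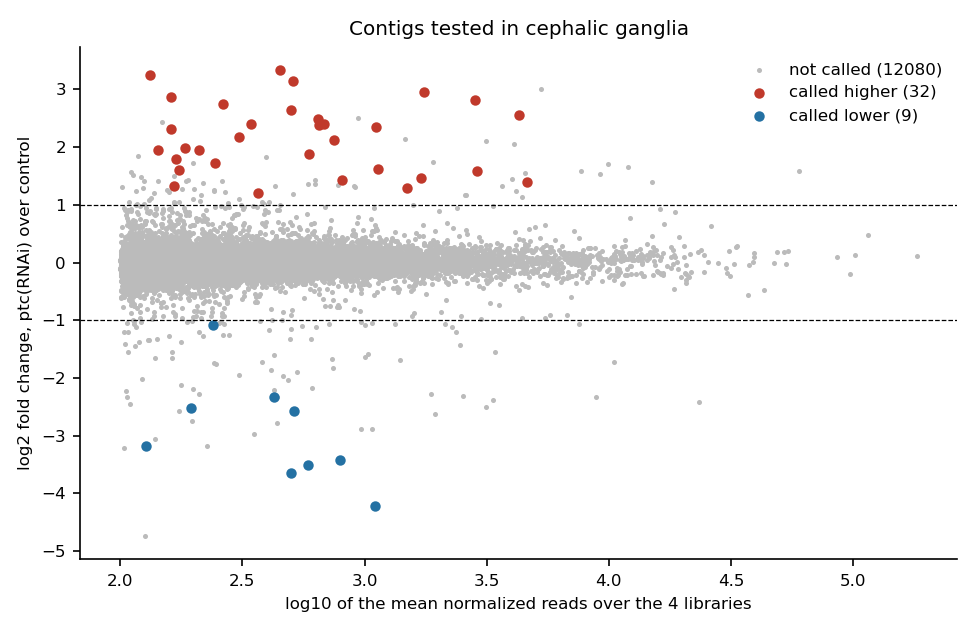
Log2 fold change of *ptc(RNAi)* over control against the log10 mean normalized reads of the 12121 tested contigs, with 32 contigs called higher in red and 9 called lower in blue. Dashed lines mark 2-fold, and many contigs beyond them were not called.

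Contigs resembling secreted proteins were among those that rose, and those like SCO-spondin, fibrillin-2 and GLIPR1 are in the study's table of Hh-responsive contigs, chosen on these samples. The strongest test result was that of dd_Smed_v4_628_0_1, annotated by its likeness to mouse SCO-spondin, a large secreted glycoprotein of the vertebrate brain. It had 7730 and 6908 normalized reads in *ptc(RNAi)*, against 1272 and 1219.7 in control, a log2 fold change of 2.55 (standard error 0.12, limma adjusted p = 0.00299). It was called with each library left out in turn, and its log2 fold change then ran from 2.47 to 2.63. Its authors' mean was 1496 in control ganglia and 33193 in head fragments.

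Both contigs of another assembly component rose. The one annotated as fibrillin-2, which in vertebrates is a protein of extracellular microfibrils (dd_Smed_v4_2649_0_1), had 2124 and 2093 normalized reads in *ptc(RNAi)*, against 797 and 926 in control (log2 fold change 1.29, standard error 0.12). Its partner dd_Smed_v4_2649_0_2 had 1101 and 1069, against 145 and 259 (2.48, standard error 0.26). The groups did not overlap for either, although the control libraries of the second differed 1.79-fold.

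The study's annotation names 3 contigs as like GLIPR1, of the CAP domain family of mostly secreted proteins. dd_Smed_v4_433_0_1 rose, with 5953 and 7519 normalized reads in *ptc(RNAi)*, against 2437 and 2666 in control, a log2 fold change of 1.39 (standard error 0.15, limma adjusted p = 0.0245). dd_Smed_v4_7131_0_1 rose as well, with 2255 and 2771, against 829.8 and 985 (1.47, standard error 0.15). The third, dd_Smed_v4_1530_0_1, had 2618 and 3133 in *ptc(RNAi)*, against 568 and 1301 in control (1.73, standard error 0.35). It was not called (limma adjusted p = 0.206), and its control libraries were unequal. In *hh(RNAi)* ganglia, whose comparison uses the same control libraries, the first had 738 and 399.8, the second 147 and 80.0 and the third 331.4 and 532 normalized reads.

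Of 4 contigs resembling protein folding factors of the secretory pathway, limma called 1 higher, edgeR 0 and DESeq2 3, beside 0.264%, 0.231% and 0.726% of all tested contigs. All 4 come from the study's table of Hh-responsive contigs, which was chosen on these samples, so their direction is no independent evidence. Peptidyl-prolyl isomerases speed the folding of proteins at proline, and that of type B (dd_Smed_v4_1242_0_1) had 2076 and 1627 normalized reads in *ptc(RNAi)*, against 259 and 497 in control. Its log2 fold change was 2.35 (standard error 0.30, limma adjusted p = 0.0425), and with edgeR its adjusted p was 0.0537. The contig like type C (dd_Smed_v4_348_0_1) had 7385 and 5774, against 1161 and 2119 (2.06, standard error 0.28), and missed the threshold with a limma adjusted p of 0.0557, while DESeq2 called it. The contig like protein disulfide-isomerase A5, which forms disulfide bonds (dd_Smed_v4_821_0_1), had 7265 and 4544, against 2215 and 2661 (1.24, standard error 0.23), and reticulocalbin-1, a calcium-binding protein of the endoplasmic reticulum, 2898 and 2335, against 1247 and 1556 (0.90, standard error 0.16). Both *ptc(RNAi)* libraries lay above both control libraries for each of the 4, as they did for 17.2% of all tested contigs.

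A marker of another tissue rose with them. *mag-1* (marginal adhesive gland-1, dd_Smed_v4_769_0_1), a marker of glands along the body margin, had 1217 and 1141 normalized reads in *ptc(RNAi)*, against 428 and 447.3 in control. Its log2 fold change was 1.43 (standard error 0.11, limma adjusted p = 0.0109). Its authors' mean was 526 in control ganglia and 11740.2 in head fragments. The study lists 22 markers as non-CNS, here named markers without CNS expression. The list also holds *net2*, given for the neuropil, and *beta-catenin*, given as global, so the label is not strict. Of the 22, 14 were tested, and limma called 1 (*mag-1*) higher and 0 lower, beside 0.264% and 0.0743% of all tested contigs. At an unadjusted p under 0.05, 3 were higher and 1 lower, beside 3.96% and 2.43% of all. edgeR called 1 higher and DESeq2 2, beside 0.231% and 0.726% of all. The summed normalized reads of the 22 markers were 26754 and 25772 in *ptc(RNAi)*, against 19023 and 23298 in control. The pair of neoblast markers among them, *smedwi-1* and *smedwi-2*, summed to 12746 and 11509 in *ptc(RNAi)*, against 6389 and 8491 in control. The other 20 summed to 14008 and 14264 in *ptc(RNAi)*, against 12635 and 14807 in control, with overlapping groups. *wntP-3* and *ovo* had at most 2.05 normalized reads in any of the 4 libraries, and none of the 22 was at 0 in all of them. Their median log2 fold change was 0.01, beside -0.01 over all tested contigs. The median log2 ratio of control ganglia over head fragments was -2.33 for the 32 contigs called higher and -0.30 for the 9 called lower. Over all tested contigs it was 0.63. Some contigs called higher had positive ratios, such as dd_Smed_v4_6605_0_1 (1.87) and dd_Smed_v4_18464_0_1 (1.23). The control ganglia libraries enter both comparisons, so the ratios are not independent of the calls. What part tissue next to the ganglia has in the called contigs was not tested.

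The neoblast markers, of the dividing stem cells, had positive differences that did not pass the limma test. *smedwi-1* (dd_Smed_v4_659_0_1) had 4329 and 2885 normalized reads in *ptc(RNAi)*, against 1370.2 and 1786 in control. Its log2 fold change was 1.18, with a standard error of 0.22 and a limma adjusted p of 0.16 (Benjamini-Hochberg), while DESeq2 called it higher with an adjusted p of 9.4e-06. *smedwi-2* had 8417 and 8623, against 5019 and 6705 (0.55, standard error 0.16). Markers of epidermal progeny had negative differences. *agat-1* had 794 and 388, against 762 and 1185 (-0.78, standard error 0.35), with overlapping groups. *prog-1* had 5433 and 2843, against 7558 and 7147 (-0.90, standard error 0.28). Both *ptc(RNAi)* libraries lay below both control libraries for *prog-1*, as for 19.2% of all tested contigs. *prog-1* is in the study's Hh-responsive table, chosen on these samples, so its direction is no independent evidence. The gut gene *mat* had 522 and 524, against 973 and 678 (-0.63, standard error 0.18). The acyltransferase gene *mboat2*, a second gut marker, had 1018 and 922, against 1028 and 1017 (-0.08, standard error 0.11). None of the 3 gut markers was called by limma.

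Groups overlapped for the muscle markers and for 3 of the 4 markers of protonephridia, the excretory system. *collagen* had 637 and 794 normalized reads in *ptc(RNAi)*, against 483 and 800.2 in control, and the pharynx muscle gene *mhc6* 6066 and 5794, against 5224 and 6566. The protonephridial carbonic anhydrase gene *ca* had 78.8 and 93.2, against 55.5 and 129, under the minimum. *cubulin* had 185 and 192, against 149.7 and 235, and *sine oculis 1/2-2* had 123 and 95.2, against 99.1 and 94.4. The POU domain gene *pou2/3* had 104 and 78.1 in *ptc(RNAi)*, against 59.5 and 72.8 in control (log2 fold change 0.45). Its groups did not overlap, and it was under the minimum and not tested.

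Most of the contigs called higher carry no name in the study's tables, 26 of 32. Of these, 4 are in the study's Hh-responsive table, where they are annotated as without similarity. They are dd_Smed_v4_447_0_1, dd_Smed_v4_9223_0_1, dd_Smed_v4_6605_0_1 and dd_Smed_v4_2169_0_1. That table was chosen on these samples, so their direction is no independent evidence. The 2 contigs of component 451 both rose, and the first had the largest fold change of the 32. dd_Smed_v4_451_0_2 had 905 and 740.3 normalized reads in *ptc(RNAi)*, against 64.4 and 101 in control, 10.1-fold higher (log2 fold change 3.33, standard error 0.23, limma adjusted p = 0.00966). dd_Smed_v4_451_0_1 had 962 and 848, against 68.4 and 151 (3.14, standard error 0.34). The authors' means were 99.1 and 132 in control ganglia and 4068 and 4747 in head fragments.

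Among the contigs called higher, 8 rose more than 6-fold, and the others beside this pair also have no name. dd_Smed_v4_9342_0_1 had 215 and 267 normalized reads in *ptc(RNAi)*, against 23.8 and 24.6 in control (log2 fold change 3.26). dd_Smed_v4_447_0_1 had 2589 and 3574, against 290.5 and 534 (2.95). dd_Smed_v4_10655_0_1 had 331.8 and 237, against 31.7 and 44.1 (2.87). Both *ptc(RNAi)* libraries lay far above both control libraries for each of these 3. dd_Smed_v4_9223_0_1 had 5884 and 4020.2 in *ptc(RNAi)*, against 484 and 989 in control (2.81). dd_Smed_v4_5242_0_1 had 549.8 and 375, against 66.4 and 66.7 (2.75). dd_Smed_v4_2047_0_1 had 908 and 811, against 99.1 and 188 (2.64). The control libraries differed 2.04-fold for the first of these and 1.89-fold for the last.

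Other unnamed contigs rose less than these 8. dd_Smed_v4_2759_0_1 had 1122 and 1170.1 normalized reads in *ptc(RNAi)*, against 182 and 254 in control (log2 fold change 2.41). dd_Smed_v4_1400_0_1 had 1237 and 947, against 187 and 228 (2.38). dd_Smed_v4_1782_0_1 had 649 and 507, against 83.3 and 138 (2.41). dd_Smed_v4_6728_0_1 had 263 and 273, against 48.6 and 58.5 (2.31), and dd_Smed_v4_4159_0_1 had 534 and 469, against 91.2 and 134 (2.17). Together with the SCO-spondin-like contig, dd_Smed_v4_2649_0_2, the type B isomerase and dd_Smed_v4_18464_0_1, these are the 9 called contigs that rose between 4-fold and 6-fold.

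Of the remaining unnamed contigs that rose, dd_Smed_v4_18464_0_1 (log2 fold change 2.12), dd_Smed_v4_6605_0_1 (1.62) and dd_Smed_v4_2169_0_1 (1.58) had at least 1079 normalized reads in each *ptc(RNAi)* library. dd_Smed_v4_6605_0_1 had 1553 and 1890.4 in *ptc(RNAi)*, against 563 and 547 in control, and 146 and 65.0 in *hh(RNAi)*. The others were dd_Smed_v4_1429_0_1 (1.99), dd_Smed_v4_8393_0_1 (1.96), dd_Smed_v4_8580_0_1 (1.95), dd_Smed_v4_1392_0_1 (1.88), dd_Smed_v4_6981_0_1 (1.79), dd_Smed_v4_1041_0_1 (1.73), dd_Smed_v4_5165_0_2 (3.03-fold), dd_Smed_v4_6161_0_2 (1.32) and dd_Smed_v4_4761_0_1 (1.21). Over all 32 contigs that rose, the summed normalized reads were 48938 and 48363 in *ptc(RNAi)*, against 11036 and 13484 in control. The largest difference between libraries of 1 group was 1.47-fold in *ptc(RNAi)* and 2.20-fold in control.

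**Figure D3:**
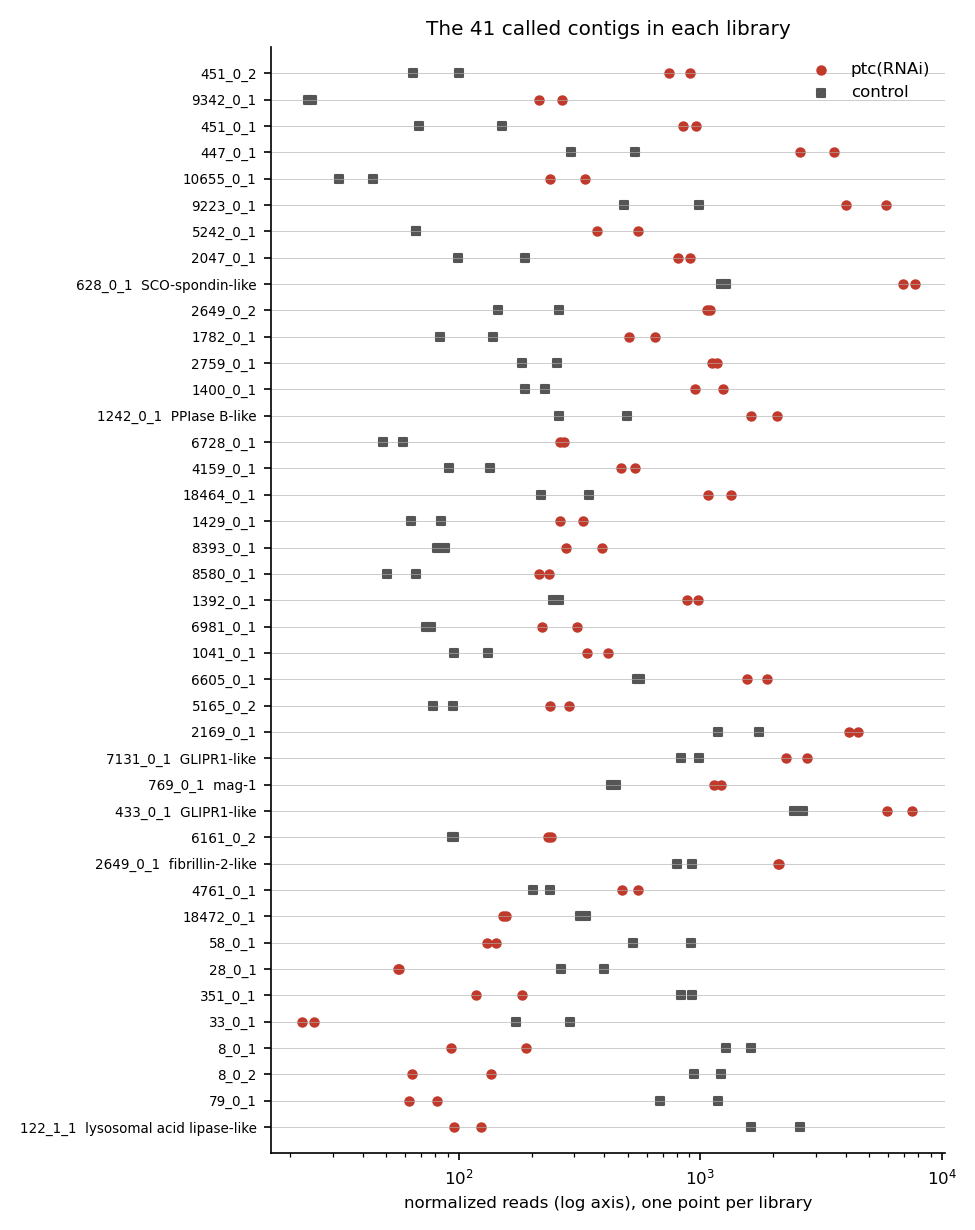
Normalized reads (log axis) of the 41 called contigs, ordered by fold change, with 1 point per library, *ptc(RNAi)* as circles and control as squares. The 32 contigs that rose have both circles to the right of both squares, and the 9 that fell have them to the left.

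The contigs that fell were led by a lipid enzyme. dd_Smed_v4_122_1_1, annotated as a lysosomal acid lipase, which splits cholesteryl esters and triglycerides, had 124 and 95.2 normalized reads in *ptc(RNAi)*, against 2585 and 1619 in control. It was 18.7-fold lower, with a log2 fold change of -4.22 (standard error 0.24, limma adjusted p = 0.00618). A second contig of the same component, dd_Smed_v4_122_0_1, went 2 ways within its group, with 11298 and 175 in *ptc(RNAi)*, against 1148 and 1237 in control. The saposin-related contig dd_Smed_v4_284_0_1, whose annotation is to lysosomal cofactors of lipid breakdown, had 2880.5 and 2481, against 4561 and 4328 (-0.73, standard error 0.12), and was not called (limma adjusted p = 0.119). Both dd_Smed_v4_122_1_1 and the saposin-related contig are in the study's Hh-responsive table, chosen on these samples, so their direction is no independent evidence.

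The other 8 contigs that fell have no name. dd_Smed_v4_79_0_1 had 80.8 and 62.1 normalized reads in *ptc(RNAi)*, against 1180 and 680.1 in control (log2 fold change -3.64). Of component 8, dd_Smed_v4_8_0_2 had 136 and 64.1, against 1219 and 938 (-3.50), and dd_Smed_v4_8_0_1 had 189.8 and 93.2, against 1628 and 1272 (-3.43). These 2 were called with each library left out in turn, as was dd_Smed_v4_351_0_1, with 182 and 118, against 923 and 833 (-2.57). dd_Smed_v4_33_0_1 had 22.4 and 25.04, against 288 and 172 (-3.18). dd_Smed_v4_28_0_1 had 56.4 and 56.1, against 401 and 265 (-2.51), and dd_Smed_v4_58_0_1 had 143 and 131, against 911 and 524 (-2.33). The smallest fall was that of dd_Smed_v4_18472_0_1, with 152 and 157, against 318 and 335 (-1.08), which was not called with any library left out.

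Several of these contigs also varied between libraries of another group. The 2 *hh(RNAi)* libraries differed more than 2-fold for 7 of the 9 contigs that fell and for 10 of the 32 that rose. The share of all tested contigs with such a difference was not counted. Whether it is more frequent among called contigs was therefore not tested. dd_Smed_v4_8_0_1 had 515 and 2986 normalized reads in *hh(RNAi)*, and the lipase contig dd_Smed_v4_122_1_1 had 1412 and 4557. *mag-1* had 206 and 898. In a limma fit that included the *hh(RNAi)* libraries, 1 contig was called higher and 0 lower in *ptc(RNAi)*, with 537 contigs at an unadjusted p under 0.05.

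A further 5 contigs with reads belong to the same components as called ones, 3 of them tested, and 4 of the 5 had a difference in the same direction. dd_Smed_v4_5165_0_1 had 237 and 318 normalized reads in *ptc(RNAi)*, against 104 and 98.5 in control, with a limma adjusted p of 0.0558. dd_Smed_v4_6161_0_1 had 272 and 234, against 94.2 and 114, with a limma adjusted p of 0.0706. DESeq2 called both higher and edgeR neither. dd_Smed_v4_6728_0_2 and dd_Smed_v4_9342_0_2 were under the minimum, the first with 107 and 90.2, against 8.92 and 10.3. Contigs of 1 component may share reads, so they are not independent.

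The study's table of 30 Hh-responsive contigs was chosen on these samples, so its members are no independent evidence of a direction. Each of the 30 passed the minimum, with 9 called higher and 1 called lower by limma, beside 0.264% and 0.0743% of all tested contigs. Of the 30, edgeR called 7 higher and 1 lower, beside 0.231% and 0.066% of all. DESeq2 called 18 higher and 1 lower, beside 0.726% and 0.314% of all. At an unadjusted limma p under 0.05, 21 were higher and 6 lower, beside 3.96% and 2.43% of all. The median log2 fold change of the 30 was 1.31. Of those not called by limma, dd_Smed_v4_13594_0_1 had the largest difference, with 10765 and 7747 normalized reads in *ptc(RNAi)*, against 690.0 and 1880.4 in control (8.01-fold higher, standard error 0.43 on the log2 scale, limma adjusted p = 0.0706). dd_Smed_v4_1636_0_1, like zonadhesin, a membrane protein of mammalian sperm, had 12894 and 9952, against 4993 and 2834 (1.59), and dd_Smed_v4_750_0_1 had 12977.6 and 14171, against 3621 and 6012 (1.54). These abundant contigs had no overlap between groups, while their control libraries differed 2.73-fold, 1.76-fold and 1.66-fold. DESeq2 called all 3 higher and edgeR none.

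Other members of that table lay between 2-fold and 3-fold. The contig like WAP four-disulfide core domain protein, of a family of secreted protease inhibitors (dd_Smed_v4_57_0_1), had 5527 and 6031 normalized reads in *ptc(RNAi)*, against 1518 and 2937 in control (log2 fold change 1.45). dd_Smed_v4_331_0_1 had 5400 and 4918, against 1536 and 2760 (1.32). The tubulin alpha contig dd_Smed_v4_648_0_1 had 4087 and 3089, against 1502 and 1646 (1.18, limma adjusted p = 0.0538). None of these 3 passed the limma threshold, while DESeq2 called dd_Smed_v4_331_0_1 and the tubulin contig higher. The FAM115A-like contig dd_Smed_v4_3451_0_1 had 5104 and 7036, against 2545 and 2916 (1.14). The contig like MYLIP, a ubiquitin ligase (dd_Smed_v4_2627_0_1), had 2139 and 2081, against 1000.3 and 1116. Its limma adjusted p was 0.0309, and at a log2 fold change of 0.997, just under 2-fold, it was not called by limma, whereas edgeR and DESeq2 called it.

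The members with negative differences were fewer. dd_Smed_v4_16532_0_1 had 119 and 514 normalized reads in *ptc(RNAi)*, against 1894 and 1755 in control (log2 fold change -2.88, standard error 0.59), a difference whose *ptc(RNAi)* libraries were far apart and whose limma adjusted p was 0.208. dd_Smed_v4_69_0_2 had 2604 and 1513, against 4103 and 3759 (-0.98), and dd_Smed_v4_13510_0_1 had 5017 and 4334, against 9165 and 8359 (-0.91, limma adjusted p = 0.0706). The contig like hematopoietic prostaglandin D synthase, dd_Smed_v4_1206_0_1, had 5922 and 6221, against 5781 and 7538, with overlapping groups.

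**Figure D4:**
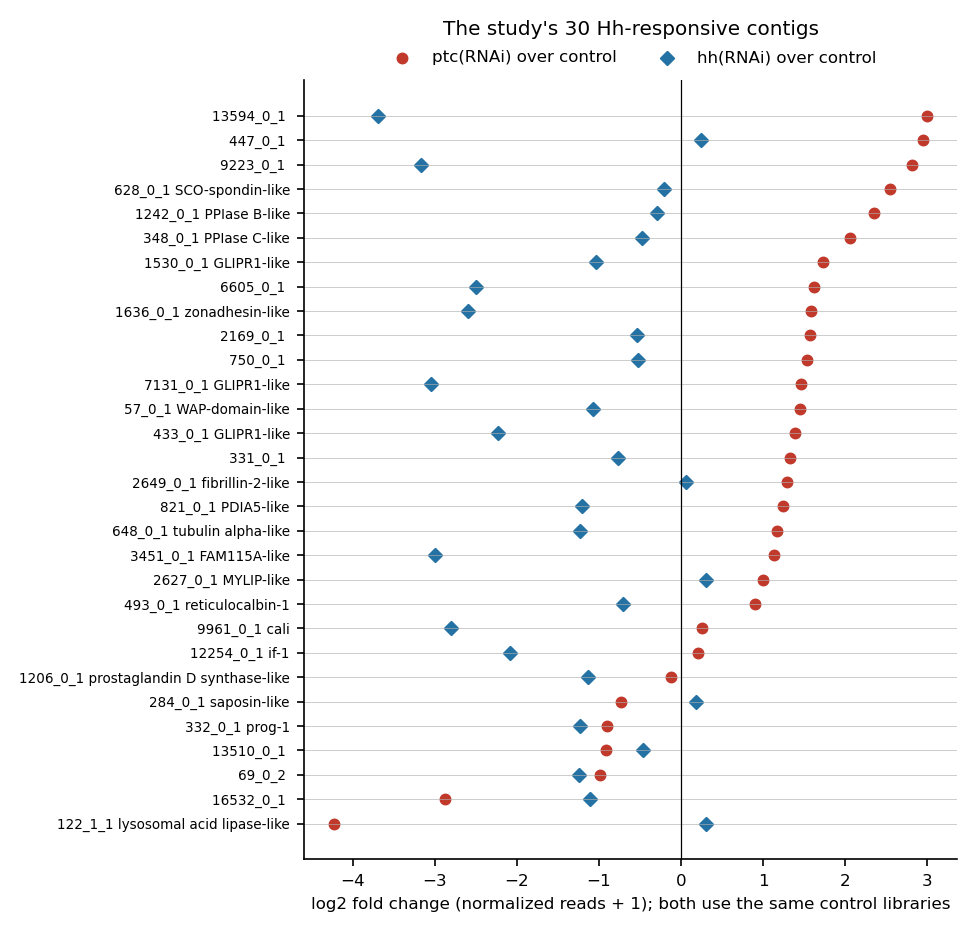
Log2 fold changes of the 30 contigs of the study's Hh-responsive table, with *ptc(RNAi)* over control as circles and *hh(RNAi)* over control as diamonds. Both use the same control libraries, so the 2 sets of values are shown side by side without a test, and *cali* and *if-1* lie at 0.26 and 0.20 in *ptc(RNAi)*.

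The neuronal panel showed no called contig. Of its 70 contigs 61 were tested, and limma, edgeR and DESeq2 called 0. At an unadjusted limma p under 0.05, 0 were higher and 2 lower, beside 3.96% and 2.43% of all tested contigs. The median log2 fold change was -0.04, beside -0.01 over all tested contigs, and single values ran from -0.36 to 0.35. Both *ptc(RNAi)* libraries lay above both control libraries for 6 of the 61 and below both for 14, beside 17.2% and 19.2% of all tested contigs.

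The neuropeptide and prohormone class, which also counts the convertase gene *pc2* (-0.04), leaned to negative values. Of its contigs, 16 of 17 were below 0 and 10 of 17 below both control libraries, beside 52.5% and 19.2% of all tested contigs. Their median was -0.22, and limma called none. The lowest was *spp-2*, a secreted peptide prohormone, with 6980.2 and 5875 normalized reads in *ptc(RNAi)*, against 7948 and 8454 in control. Its log2 fold change was -0.36, with a limma adjusted p of 0.728 (Benjamini-Hochberg). Next was *eye53-2*, with 6297 and 5041, against 7150.2 and 7110.1 (-0.34). *eye53-1* had 20968 and 16421, against 22915 and 22894 (-0.30). The difference was larger in 1 library: measured against the control mean, the class median was -0.09 in *ptc(RNAi)* library a and -0.38 in library b. *npp-18*, with 456 and 309, against 299 and 313 (0.29), was the one member above 0. The median of the class was -0.38 without *ptc(RNAi)* library a. In *hh(RNAi)* ganglia, compared with the same control libraries, the class median was also negative, at -0.14, beside -0.02 over all tested contigs. The lean is therefore not particular to *ptc(RNAi)*.

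Other classes of the panel centred near 0. The 18 transcription factors tested had a median of 0.09, with *cas* (castor) at 0.35 and *lhx2/9*, a LIM homeobox gene, at 0.32 the highest, the second with 175 and 192 normalized reads in *ptc(RNAi)*, against 152 and 142 in control. The homeobox genes *nkx2* and *nkx6* were at 0.18 and 0.07, and *pax6B* was under the minimum. Genes of transmitter synthesis and transport had a median of 0.01 and synaptic and axonal genes of -0.01. The cholinergic marker *chat* had 10746 and 13506 in *ptc(RNAi)*, against 14493 and 13183 in control, with overlapping groups. The CNS marker contig dd_Smed_v4_5133_0_2, of a prohormone gene, had 6960 and 5682, against 7507 and 7406 (-0.25), without overlap. Its assembly component also holds dd_Smed_v4_5133_0_1 (-0.23), a member of the neuropeptide and prohormone class. These contigs are therefore not independent, and the value belongs with that class. Neither *chat* nor dd_Smed_v4_5133_0_2 passed the test. Netrin 1 (*net1*), an axon guidance cue, had 603 and 605 in *ptc(RNAi)*, against 508 and 589 in control (0.14, standard error 0.13). The tyrosine hydroxylase gene *th*, of dopamine synthesis, had 564 and 592, against 548 and 604, and a contig of the tryptophan hydroxylase gene *tph*, of serotonin synthesis (dd_Smed_v4_8392_0_2), had 184 and 147, against 159 and 208. Of the 7 markers with CNS expression, limma, edgeR and DESeq2 called 0, and 0 had an unadjusted limma p under 0.05. The 4 ion channel and pump contigs had a median of -0.10.

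**Figure D5:**
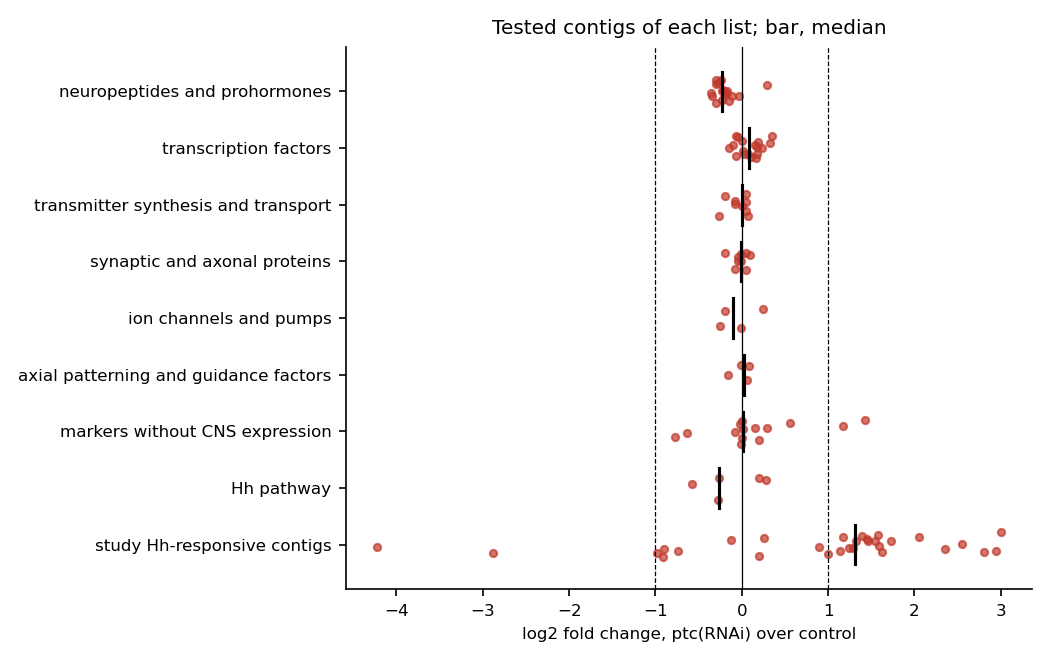
Log2 fold changes of the tested contigs of each list, *ptc(RNAi)* over control, with 1 point per contig and a bar at the median, and dashed lines at 2-fold. The classes of the neuronal panel lie within the dashed lines, from -0.36 to 0.35, while the study's own contigs centre at 1.31.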

How the data were processed

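RNA of dissected ganglia was sequenced on an Illumina instrument after library preparation. The authors trimmed reads at the 5′ end, aligned them with Bowtie2 to the Dresden transcriptome assembly with the best single alignment kept, and counted them with SAMtools. Versions are not given in the sources used here. The methods name DESeq2, while the column names of the deposited tables are those of DESeq, and which was run was not settled. The authors deposited signal columns of group means, in which the reads of each library were divided by its size factor and then averaged over the pair. The same tables hold the authors' own fold changes and p-values, which were not used. One row of each table names no contig and holds 0 reads (0% of the total).

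Such a mean is built from whole reads, each worth a fixed step per library, so the reads of both libraries were recovered. 100% of means above 0 were solved within a relative misfit of 1e-12, 0 with more than 1 solution, and simulated means were recovered in 100% of contigs. These libraries carry no replicate number.

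limma 3.58.1 (R 4.3.3) with trended empirical Bayes was run on log2(normalized reads + 1) of the 4 libraries, for contigs with an average of at least 100, a scale that understates the change of low contigs. A call needed a fold change above 2 and a Benjamini-Hochberg adjusted p under 0.05. The count tools edgeR 4.0.16 and DESeq2 1.42.0 on the recovered reads were alternatives. The fits were tested on simulated data. Python 3.11.15 with numpy 2.4.6, pandas 2.3.3 and matplotlib 3.10.9 did the rest.

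The contigs and lists were chosen with earlier results of these data known. Named were the Hh pathway contigs and *gapdh*, *if-1* and *cali*, all called contigs, the rest of the study's Hh-responsive table, other contigs of the same assembly components, chosen markers, and the contigs with the 3 highest and 3 lowest values of the neuronal panel and marker lists. Alternatives covered the minimum, pseudocount, thresholds, scaling, variance trend, weights, added *hh(RNAi)* libraries and each library left out.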

Additional observations from a re-analysis of the deposited data

How the results depend on the processing

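No paired analysis was possible because the recovered libraries carry no replicate number, so left-out libraries are named a or b. The counts of 32 contigs called higher and 9 lower became 6 and 0 with a minimum of 1000 normalized reads, 0 and 0 with no minimum, 1 and 0 in the fit with the *hh(RNAi)* libraries, and 88 and 38 with DESeq2. Without a variance trend 17 were called higher. With each library left out in turn they ran from 1 to 65 higher and from 5 to 47 lower, where the lone library of a group is assumed to vary like the other group. Without *ptc(RNAi)* library a, 1 of the 32 and 3 of the 9 remained, and without its library b, 3 of the 32 and 3 of the 9. The causes were not tested. The other alternatives kept both counts within 1.5 times. No called contig changed direction under an alternative. Directions turned for contigs near 0: with scaling by total reads *gapdh* was at -0.024, *mhc6* at -0.00979 and *th* at -0.021, and with scaling by the upper quartile *syn* was at 0.0011. With each library left out in turn, *gapdh* ran from -0.096 to 0.10, *mhc6* from -0.15 to 0.18, *syn* from -0.071 to 0.047, *pc2* from -0.14 to 0.064, *th* from -0.064 to 0.076, *tph* (dd_Smed_v4_8392_0_2) from -0.34 to 0.053, *if-1* from -0.081 to 0.49, *collagen* from -0.17 to 0.56, the prostaglandin D synthase contig from -0.31 to 0.070, *nkx6* from -0.27 to 0.41 and dd_Smed_v4_122_0_1 from -2.76 to 3.24. The median over all tested contigs was 0.015 with a minimum of 1000 and -0.039 with scaling by total reads. With that minimum the neuronal panel's median was -0.14 and that of the markers without CNS expression 0.30. With each library left out, the medians ran from -0.023 to 0.00585 over all contigs and from -0.076 to 0.011 in the panel. The ranges were -0.0501 to 0.16 in those markers, 1.11 to 1.39 in the study's table and -0.38 to -0.093 in the neuropeptide and prohormone class. Depth limits the contigs with few reads, and 26512 of 38633 contigs were under the minimum.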
